A study of Mus musculus with 2 samples.

Results

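Receptors for prostaglandins, bradykinin and proteases, together with the cyclooxygenases that start prostaglandin synthesis, were read from the transcriptome of mouse dorsal root ganglion (DRG) neurons. The genes were chosen by symbol as Ptgs1, Ptgs2, Ptgir, Ptger1, Ptger2, Ptger3, Ptger4, Bdkrb1, Bdkrb2 and F2rl1, which are 10 of the 24411 genes and 11 of the 35034 RefSeq transcript rows in the data. The study asked whether DRG neurons of immunized mice express the genes needed to make antibodies, and it sequenced 2 libraries. One came from alum-injected mice and the other from alum + KLH-immunized mice, and for each the DRG neurons of 10 mice were combined before RNA was extracted. All were male C57BL/6J mice of 6 to 8 weeks. Both groups received 50% alum, an aluminium salt adjuvant, intraperitoneally in 200 µl of saline on day 0 and day 14, and the immunized group received in addition 100 µg KLH (keyhole limpet hemocyanin, a foreign protein antigen). DRGs of the thoracic and lumbar levels were taken 14 days after the second injection, digested to single cells, spun through albumin and depleted of B cells with beads. The label of the control library calls it both naïve and alum alone, and it is treated here as alum-injected, as in the study's methods. Since the mice of a group were pooled, there is 1 library per group, no spread between mice can be measured, and no difference between the pools was tested.

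Prostaglandins are lipids made from arachidonic acid by the cyclooxygenases and then by synthases for each prostanoid. They act on G protein-coupled receptors, of which the E type receptors bind prostaglandin E2 and the I type receptor binds prostacyclin. Bradykinin is a peptide cut from kininogen during tissue injury, and the protease-activated receptors are switched on when a protease cuts their own extracellular end. On nociceptors, the sensory neurons for pain, several of these receptors are known for sensitizing the cell to heat, pressure and chemical irritants.

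Values are TPM, the relative abundance of a transcript after correction for its length and scaling to the same sum in every library, and were summed over the transcripts of a gene. A gene above 3 TPM was counted as detected. The low TPM values fell on whole multiples of a single step once multiplied by transcript length, so the number of sequenced fragments behind each value could be estimated. Of the low genes that the estimate had not used, 74.5% of 787 in the alum library and 77.5% of 773 in the alum + KLH library lay within 0.1 of a whole fragment, where evenly spread values would give 20%. The estimated depth was 47400000 fragments in the alum library and 55600000 in the alum + KLH library. It covers transcripts of known length, which held 97.2% and 97.1% of the TPM. Reads assigned to no transcript are not in it. Brackets after a TPM value or a ratio hold its 95% interval from these fragment numbers, which covers counting error only and not the spread between mice.

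**Figure D1:**
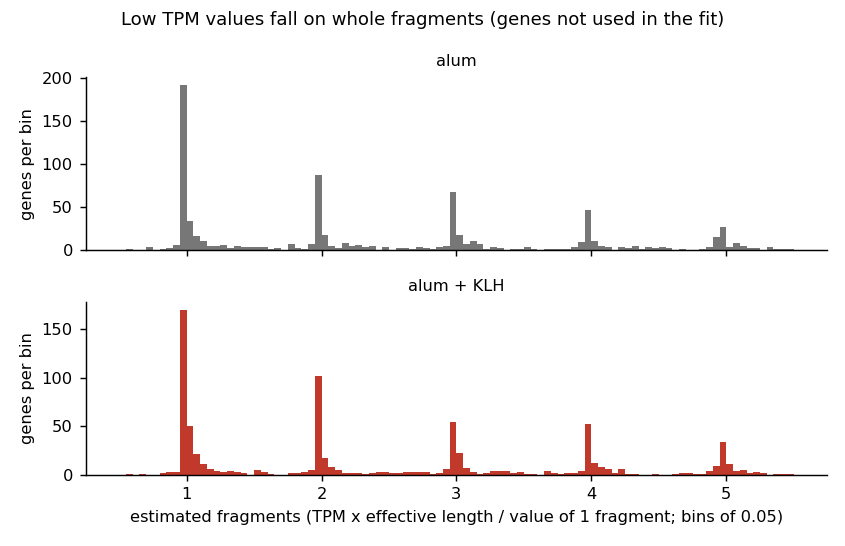
Number of genes (vertical axis) by estimated fragments (horizontal axis, bins of 0.05 fragments) in the alum library (grey) and the alum + KLH library (red), for genes not used in the estimate. The genes gather in peaks at whole numbers of fragments, with 74.5% and 77.5% of them within 0.1 of one.

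The preparation held the cells its label names. All 8 neuronal markers examined were above 3 TPM in both pools, as were all 4 markers of peptidergic nociceptors, all 4 of non-peptidergic nociceptors and all 4 of neurofilament neurons. Glial markers were present as well, with 5 of 6 for satellite glia in both pools and 4 of 6 (alum) or 5 of 6 (alum + KLH) for Schwann cells. None of 9 macrophage, 6 mast cell or 4 platelet markers was above 3 TPM in either pool, while 2 of 7 endothelial, 3 of 6 fibroblast and 1 of 5 mural cell markers (Rgs5, at 172.2 and 162.4 TPM) were above it in both. Of 4 red cell markers, Hba-a1 alone passed, at 4.15 TPM in the alum pool and 1.62 TPM, below the threshold, in the alum + KLH pool. In such bulk samples, fewer cells of a type and less RNA per cell cannot be told apart.

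Of the 10 genes, 4 were above 3 TPM in each pool, and they were the same 4 prostaglandin receptors: Ptgir, Ptger4, Ptger3 and Ptger2. This is 40% of the genes, beside 46.9% of all genes in the alum pool and 46.3% in the alum + KLH pool. Ptgs2, Ptger1 and Ptgs1 lay between 1.10 and 2.78 TPM, and Bdkrb2 and F2rl1 between 0.476 and 0.674 TPM. Bdkrb1 was at the limit of detection.

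**Figure D2:**
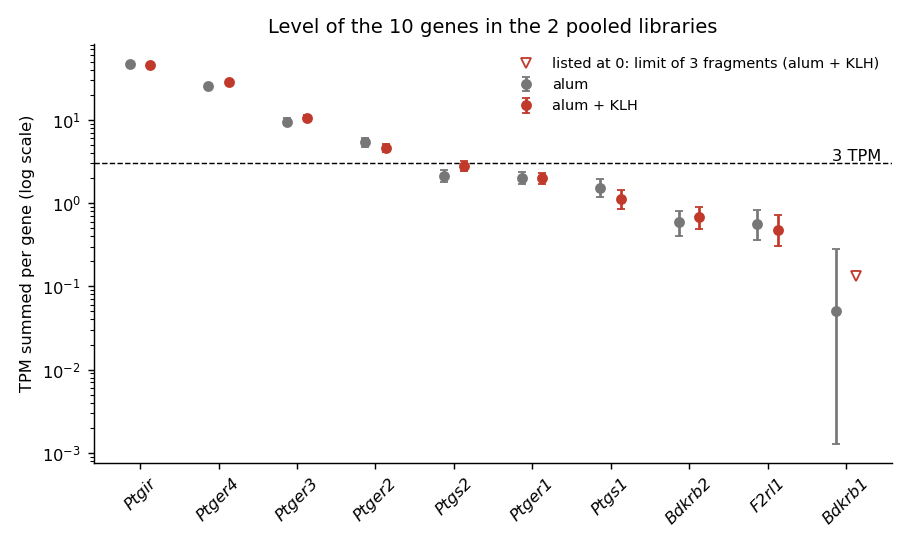
TPM summed per gene (logarithmic vertical axis) of the 10 genes in the alum pool (grey) and the alum + KLH pool (red), with 95% counting intervals as bars, the 3 TPM threshold as a dashed line and an open triangle for the limit set by 3 fragments where a gene was listed at 0. Ptgir, at 46.1 and 45.5 TPM, stood highest in both pools, and Ptgir, Ptger4, Ptger3 and Ptger2 lay above the line.

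None of the 4 genes above 3 TPM differed at least 2-fold between the pools, taken as log2 of (TPM + 1) in alum + KLH over (TPM + 1) in alum. Among all 11648 genes above 3 TPM in at least 1 pool, 1.64% did. Without a filter on TPM it was 0 of 10 genes, beside 0.905% of all genes. With a background this low, a count of 0 among so few genes is no result about them. Their median log2 ratio was 0.06 for the 4 genes above 3 TPM and -0.01 for all 10, beside -0.02 for all genes above 3 TPM.

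The prostacyclin receptor and the E type receptors divide by the G protein they couple to. Ptgir, Ptger2 and Ptger4 raise cyclic AMP, Ptger3 mainly lowers it, and Ptger1 raises intracellular calcium. Most of the signal came from Ptgir, Ptger4 and Ptger3, in that order.

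Ptgir encodes the prostacyclin receptor and lies on chromosome 7 (GRCm38, 16906514 to 16910900, plus strand, 2 exons). It reached 46.1 TPM [44.3 to 48.0] in the alum pool, from about 2398 fragments, and 45.5 TPM [43.8 to 47.2] in the alum + KLH pool, from about 2768. Only 16.2% of all genes were higher in the alum pool and 16.3% in the alum + KLH pool. The ratio of the pools was 0.987 [0.934 to 1.04], a difference within counting error. Ptgir was thus the highest of the 10 genes in both pools, at 1.83 times Ptger4 in the alum pool and 1.59 times in the alum + KLH pool.

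Ptger4 encodes the EP4 receptor for prostaglandin E2, on chromosome 15 (GRCm38, 5233399 to 5244187, minus strand). It stood at 25.1 TPM [23.8 to 26.6] in the alum pool and 28.7 TPM [27.4 to 30.1] in the alum + KLH pool. The alum + KLH pool was higher by a ratio of 1.14 [1.06 to 1.23], so the difference was larger than counting error. The log2 ratios of the 500 genes nearest in level had a 90th percentile of 0.12 and a standard deviation of 0.17. On the log2 scale the ratio of Ptger4 was 0.18, above that percentile. It was 0.10 with TPM taken relative to the housekeeping gene Hprt and 0.24 with only the higher transcript counted. How far mice differ in Ptger4 is not known from pooled samples, and the difference stayed far below 2-fold.

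Ptger4 is the only one of the 10 genes with 2 transcripts in the data. They use different splice donors at the end of exon 1, where NM_001136079 runs 63 bases further than NM_008965, and both then join the same exon 2 (5242261 to 5243195). The junctions below, 5′ to 3′ on the minus strand of GRCm38, are shown because they differ between the transcripts. They hold only part of the sequence that separates them. Of exon 1, 16 bases are printed, and its annotated first base also differs, at 5244187 (NM_008965) and 5244172 (NM_001136079). Exon 1 bases are in lower case and exon 2 bases in capitals, and the intervals chr15:5243182-5243698 for NM_008965 and chr15:5243182-5243635 for NM_001136079 include the intron between them.
NM_008965: atggctgaggttggagGTACCATTCCTAGA
NM_001136079: taaccccaccctacagGTACCATTCCTAGA
The annotated start codon of NM_008965 is the atg that opens its printed sequence, in exon 1, and the coding sequence has 1539 bases. NM_001136079 starts translation in exon 2, with 1464 coding bases.

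Nearly all of the Ptger4 signal was assigned to NM_008965. It took 24.2 TPM (96.2% of the gene) in the alum pool and 28.7 TPM (100%) in the alum + KLH pool. NM_001136079 had 0.961 TPM, about 50.1 fragments, in the alum pool and was listed at 0 in the alum + KLH pool. Both transcripts hold the same 3194 stretches of 31 bases, the length by which kallisto matches reads by default, and have only 40 (NM_008965) and 88 (NM_001136079) such stretches of their own. The split between them therefore rests on few reads and is less certain than the sum per gene.

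Ptger3, which encodes the EP3 receptor, was the third of the 10 genes. It lies on chromosome 3 (GRCm38, 157566892 to 157645888, plus strand, 3 exons in the transcript listed) and has 1 transcript row in the data, so its known splice forms were not distinguished. The level was 9.49 TPM [8.65 to 10.4] in the alum pool and 10.6 TPM [9.76 to 11.5] in the alum + KLH pool. The ratio was 1.12 [0.987 to 1.26], within counting error.

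Ptger2, for the EP2 receptor, was the lowest of the 4 genes above 3 TPM. It lies on chromosome 14 (GRCm38, 44988195 to 45003820, plus strand, 2 exons) and stood at 5.33 TPM [4.76 to 5.97] in the alum pool and 4.54 TPM [4.05 to 5.08] in the alum + KLH pool. The fragment numbers were nearly equal, about 311 and 310, in libraries of different depth. The ratio was 0.852, and its interval [0.725 to 1.00] reached 1 only at its upper end. A stretch of the Ptger2 transcript, 219 of its 3654 runs of 31 bases, also lies in reverse in the antisense gene Gm17173. Ptger3 exceeded Ptger2 by 1.78 times in the alum pool and by 2.33 times in the alum + KLH pool.

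Ptger1, for the EP1 receptor, was below the threshold, at 2.01 TPM [1.70 to 2.35] in the alum pool and 1.99 TPM [1.70 to 2.30] in the alum + KLH pool. The pools could not be separated, with a ratio of 0.991 [0.792 to 1.24]. It is annotated on chromosome 8 (GRCm38, plus strand, 3 exons). The kit kept the strand of the RNA, but whether kallisto used that strand is not given in the sources used here, and the level of Ptger1 is less certain than its counting interval for this reason.

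In sum the 5 prostaglandin receptors held 88.1 TPM in the alum pool and 91.3 TPM in the alum + KLH pool. Ptgir took 52.3% and 49.8% of this, Ptger4 28.5% and 31.4%, Ptger3 10.8% and 11.6%, Ptger2 6.06% and 4.98%, and Ptger1 2.28% and 2.18%. The order was the same in both pools, and the counting intervals of any neighbours in this order stayed apart. They were not the highest prostanoid receptors in the preparation, however. The receptors for prostaglandin D2 (Ptgdr, 94.3 and 94.9 TPM) and prostaglandin F2α (Ptgfr, 94.2 and 101.9 TPM) were each more than 2 times as high as Ptgir in both pools. The second prostaglandin D2 receptor Ptgdr2 was listed at 0 in both, and the thromboxane receptor Tbxa2r stayed under 0.1 TPM.

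**Figure D3:**
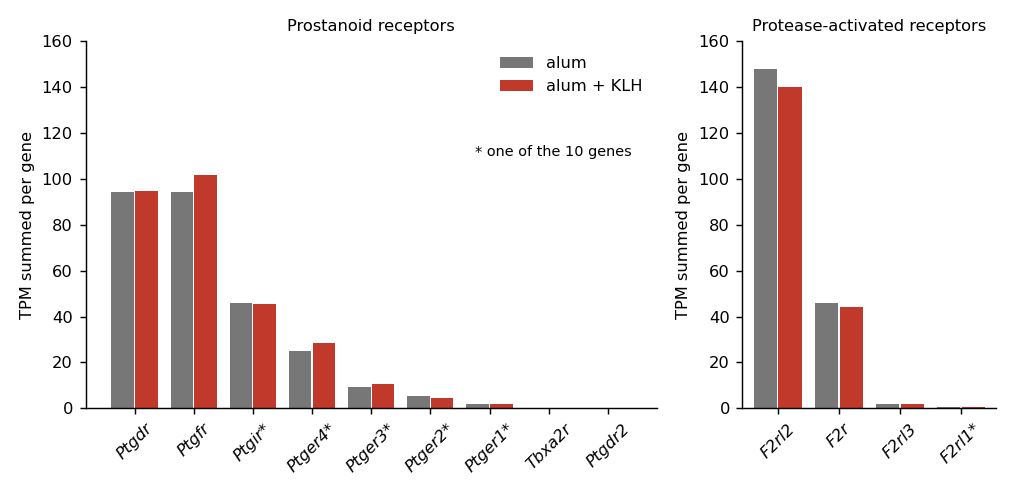
TPM summed per gene (vertical axes, starting at 0) of all 9 prostanoid receptors (left) and all 4 protease-activated receptors (right) in the alum pool (grey) and the alum + KLH pool (red), with asterisks on the genes described in detail. Ptgdr and Ptgfr, between 94.2 and 101.9 TPM, stood above Ptgir, and F2rl2, at 147.9 and 140.1 TPM, far above F2rl1.

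The cyclooxygenases were low. Ptgs2, the inducible form that rises with injury, inflammation and neuronal activity, lies on chromosome 1 (GRCm38, 150100031 to 150108227, plus strand, 10 exons). It was at 2.10 TPM [1.78 to 2.47] in the alum pool, from about 149 fragments, and at 2.78 TPM [2.43 to 3.16] in the alum + KLH pool, from about 231. The ratio of 1.33 [1.07 to 1.64] was the highest of the 9 that could be formed and exceeded counting error, although both values were under 3 TPM. On the log2(TPM + 1) scale it was 0.29, above the 90th percentile of 0.21 over the 500 genes nearest in level. The standard deviation of the log2 ratios of these 500 genes was 0.64, larger than the value of Ptgs2.

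Because Ptgs2 is itself an activity-regulated gene and cells were digested before lysis, 18 immediate early genes were read beside it. Of these, 15 were above 3 TPM in both pools, with Fos at 454.3 and 417.5 TPM, Atf3 at 238 and 219 TPM and Egr1 at 149 and 142 TPM. Their median log2 ratio was -0.13, the opposite direction to Ptgs2, and none of those above 3 TPM was 2-fold apart. Egr2 (0.16), Fosl2 (0.07) and Egr3 (0.07) had log2 ratios above 0, as Ptgs2 did. The part of dissociation in the Ptgs2 values was not tested.

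Ptgs1, the constitutive form, lies on chromosome 2 (GRCm38, 36230426 to 36252272, plus strand, 11 exons). It was at 1.51 TPM [1.18 to 1.92] in the alum pool and 1.10 TPM [0.840 to 1.43] in the alum + KLH pool, from about 68 and 58 fragments. The ratio of 0.732 [0.506 to 1.05] was within counting error. Of its 2837 runs of 31 bases, 126 occur in reverse in other annotated genes and 6 in the same direction. Platelets and endothelium are known to express Ptgs1, and none of 4 platelet markers and 2 of 7 endothelial markers were above 3 TPM. The median endothelial marker was at 2.61 TPM in the alum pool and 1.60 TPM in the alum + KLH pool, and their part in the Ptgs1 values was not tested. Ptgs2 was 1.39 times Ptgs1 in the alum pool and 2.52 times in the alum + KLH pool. Their intervals overlapped in the alum pool and were apart in the alum + KLH pool. Overlap of separate intervals does not by itself leave an order unresolved, and no interval was formed for this ratio. In the order of levels, the intervals of Ptgs2 and Ptgs1 each overlapped that of Ptger1 in the alum pool, whereas in the alum + KLH pool they stood apart from it. Ptgir, a receptor downstream of both enzymes, was 22.0 and 16.3 times as high as Ptgs2.

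The bradykinin receptors were both far below 3 TPM, and Bdkrb1 was at the limit of detection. Bdkrb2, the constitutive B2 receptor, lies on chromosome 12 (GRCm38, 105563226 to 105595237, plus strand, 3 exons) and was at 0.588 TPM [0.406 to 0.811] in the alum pool and 0.674 TPM [0.491 to 0.889] in the alum + KLH pool. These values rest on about 35 and 47 fragments, and the ratio of 1.15 [0.725 to 1.83] was within counting error. Bdkrb2 was thus present at a low level in both pools, and the counts leave any ratio inside this interval possible.

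Bdkrb1, the B1 receptor that is known to be induced by injury and inflammation, is the neighbour of Bdkrb2 on chromosome 12 (GRCm38, 105604091 to 105605428, plus strand, 1 exon). It was at 0.0504 TPM in the alum pool, which is the value of a single fragment (0.989 by the estimate), and was listed at 0 in the alum + KLH pool. A count of 0 allows up to 0.131 TPM there, taking 3 fragments as the limit, so no ratio is given. Neither pool therefore held more than 1 fragment of Bdkrb1.

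F2rl1, which encodes protease-activated receptor 2, the target of trypsin and mast cell tryptase, lies on chromosome 13 (GRCm38, 95511732 to 95525227, minus strand, 2 exons). It was at 0.555 TPM [0.360 to 0.836] in the alum pool and 0.476 TPM [0.308 to 0.715] in the alum + KLH pool, with about 24 fragments in each. The ratio of 0.858 [0.467 to 1.58] was within counting error. Of its 2711 runs of 31 bases, 23 also occur in other annotated genes in the same direction and 18 in reverse. The intervals of F2rl1 and Bdkrb2 overlapped in both pools, and no interval was formed for their ratio.

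F2rl1 was a small part of its receptor family. It made up 0.283% of the summed TPM of the 4 protease-activated receptors in the alum pool and 0.255% in the alum + KLH pool. F2rl2, which encodes protease-activated receptor 3, reached 147.9 and 140.1 TPM, or 266.7 and 294.4 times F2rl1. The thrombin receptor F2r stood at 45.7 and 44.1 TPM, or 82.4 and 92.7 times F2rl1, and F2rl3 was below 3 TPM.

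Taking the 9 genes for which a ratio could be formed, 6 lay between the 10th and the 90th percentile of the log2 ratios of the 500 genes nearest to each in level. The other genes, Ptger3, Ptger4 and Ptgs2, lay above the 90th percentile. By construction 20% of the neighbours are outside these limits, and 10% are above the upper one. For Ptger3 this depended on the choice of neighbours, since it fell inside the limits among genes with 1 transcript row. The interval left out a ratio of 1 for Ptger4 and Ptgs2. How often the intervals of other genes of similar level also leave out 1 is not given here. This count is therefore not read as a result about Ptger4 and Ptgs2.

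**Figure D4:**
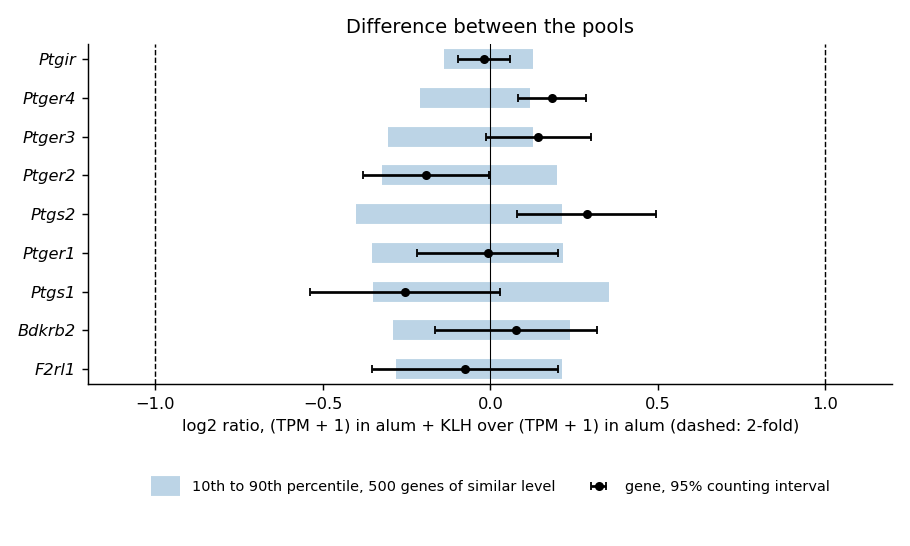
Log2 ratio of (TPM + 1) in alum + KLH over (TPM + 1) in alum (horizontal axis) for the 9 genes with a ratio, with 95% counting intervals as bars, the 10th to 90th percentile of 500 genes of similar level in blue and a 2-fold difference as dashed lines. All points lie well inside the dashed lines, and Ptgs2, at 0.29, and Ptger4, at 0.18, lie above the blue range.

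The genes that make, break down or transmit these signals were read from 6 lists. For their counts above 3 TPM, the share over all genes was 46.9% in the alum pool and 46.3% in the alum + KLH pool. Among 21 genes of prostanoid synthesis and removal, 5 exceeded 3 TPM in both pools. Their leading gene was Ptges3, a co-chaperone with prostaglandin E synthase activity, at 816.1 and 864.1 TPM, followed by the prostaglandin reductase Ptgr2 at 56.5 and 59.2 TPM and the carbonyl reductase Cbr1 at 35.3 and 30.8 TPM. Ptges, the inducible synthase that works with Ptgs2, was at 3.03 and 2.79 TPM. The inducible synthase was thus close to the threshold in both pools.

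Of 17 genes of kinin formation and breakdown, 6 were above 3 TPM in both pools. They included peptidases such as Cpe at 1609.1 and 1703.4 TPM, Cpd at 108.1 and 107.8 TPM and Prep at 60.4 and 60.0 TPM. Mme (18.3 and 20.1 TPM) and Ece1 (20.3 and 16.7 TPM) were also among them. The peptidases Cpn1 (0.841 and 0.880 TPM), Cpm (1.47 and 1.74 TPM) and Ace (0.607 and 0.971 TPM) were below 3 TPM. The part of any listed peptidase in kinin breakdown in these cells was not tested. The kininogen genes Kng1 (0.104 and 0.0642 TPM) and Kng2 (listed at 0) and the kallikrein Klk1 (listed at 0) were near or at 0 in both pools.

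A list of 25 genes held proteases that act on protease-activated receptors, inhibitors of proteases and the protease cofactor F3. Of these genes, 3 were above 3 TPM in both pools. These were the lysosomal protease Lgmn at 211.7 and 207.3 TPM, tissue factor F3 at 138.4 and 145.6 TPM and the protease nexin Serpine2 at 69.1 and 68.7 TPM. The trypsin gene Prss1 and the tryptase genes Tpsab1 and Tpsb2 were listed at 0 in both pools.

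Of the 33 listed partners through which these receptors reach ion channels, 27 were above 3 TPM in both pools. Scn10a and Trpv1 of this list also served above as markers of neurons and nociceptors. The lists differ in how they were composed, so their counts are not compared. Leading this list were Gnas, the G protein subunit that raises cyclic AMP, at 1748.1 and 1667.6 TPM, and the protein kinase A subunits Prkar1a and Prkar2b. Their targets on nociceptors, the channels Scn10a (300.5 and 282 TPM), Scn9a, Trpa1 and Trpv1 (72.6 and 73.6 TPM), were in the same list. Of the other prostanoid receptors 2 of 4 and of the other protease-activated receptors 2 of 3 were above 3 TPM in both pools. No gene above 3 TPM in these 6 lists was at least 2-fold apart between the pools, beside the background of 1.64%. Below 3 TPM, the aldo-keto reductase Akr1b3 was at 1.21 TPM in the alum pool and listed at 0 in the alum + KLH pool.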

How the data were processed

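The authors prepared stranded mRNA libraries from pooled DRG neurons and deposited TPM per RefSeq transcript. The submitters' processing notes name bcl2fastq, cutadapt, kallisto and mm10, and the tool versions and the strand setting are not given in the sources used here. TPM was summed per gene symbol, and log2 ratios used a pseudocount of 1 TPM, which understates the change of low genes. With 1 library per group no test, p-value or replicate check was possible. The 10 genes and the lists were chosen with earlier results of these data known. All 10 genes are described, and each list is given by its counts, its 3 highest genes, any gene at least 2-fold apart among those above 3 TPM in at least 1 pool, and a few genes chosen after their values were seen.

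Fragments were estimated after the data had been seen. TPM multiplied by the transcript length less an offset (145 bases in alum, 155 in alum + KLH) fell on multiples of 60.75 and 51.75, fitted on one part of 15606 genes with 1 transcript row of at least 800 bases and checked on the rest. TPM intervals are exact Poisson and ratio intervals exact binomial. Gene positions, exons and 31-base stretches came from GENCODE M21 (GRCm38, the assembly of mm10) through RefSeq identifiers, for all 11 transcripts, whose lengths may differ slightly from those the authors used. The calculations were tested on simulated data and used Python 3.11.15, numpy 2.4.6, pandas 2.3.3, scipy 1.17.1 and matplotlib 3.10.9. Other thresholds, pseudocounts, scalings, neighbours and transcript choices were tried as alternatives. One result on sequence shared between genes is not reported here.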

Additional observations from a re-analysis of the deposited data

How the results depend on the processing

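The number of the 10 genes above the threshold followed the threshold itself, with 10 in alum and 9 in alum + KLH above 0 TPM, 7 and 7 above 1 TPM, and 2 and 3 above 10 TPM. None of the genes was 2-fold apart in any of the 9 alternatives tried. The median log2 ratio of the genes above 3 TPM was 0.06 and ran from -0.02 (TPM relative to Hprt) to 0.14 (genes above 10 TPM), so its sign was not stable. Of 54 alternative log2 ratios of single genes, 53 stayed within the counting error of the reported value, and Ptgir relative to Hprt moved to -0.10. Ptger1, near 0, changed sign when rescaled by the median ratio of the pools. No paired analysis was possible because each group has 1 library, and no library could be left out. Depth limits Bdkrb1, Bdkrb2 and F2rl1 the most.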
